A study of Mus musculus with 12 samples.

Results

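The genes described here are those of the epidermal differentiation complex, a cluster on mouse chromosome 3 that holds structural and signalling genes of the cornified layer of skin. Members were the genes whose symbol begins with Lce, Sprr or S100a, together with Flg, Flg2, Hrnr, Rptn, Lor, Ivl, Crnn, Crct1, Kprp and Lelp1. This rule reads symbols and no measured value, but it was chosen with earlier results of these data known. RefSeq lists 64 such symbols, 63 of them on chromosome 3, and a probe named by its RefSeq accession was present for 57. Of these, 53 had a probe that passed the scanner software's background test on 3 or more of the 12 arrays. They form the set, out of 16180 genes measured in the same way. Each gene is represented by its brightest probe, and 48 of the 53 were above background on all 12 arrays. No probe was named for Flg, Lce1j, Lce6a, Sprr2a1, Sprr2a3, Sprr2c-ps and S100a11-ps, so these are not described. Sprr2b, Sprr2j-ps, Sprr2k and Sprr3 were above background on at most 2 arrays and were left out.

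The study compared regrowing skin of plucked wildtype mice (WT) with that of mice carrying a skin-restricted conditional knockout of Sox4 (cKO), the transcription factor whose part in hair regrowth was the question. All 12 mice were male, on a mixed C57Bl6/129Sv background, and whole skin was taken 12 days after plucking. Exp 1 held 3 WT and 3 cKO mice of 68 to 72 weeks of age, and Exp 2 held 3 WT and 3 cKO mice of 16 to 20 weeks, which means that age cannot be told apart from experiment. The promoter that drives the recombinase was not given in the sources used here. Labels number the WT mice 1 to 3 in Exp 1 and 4 to 6 in Exp 2, and the cKO mice 2, 5 and 6 in Exp 1 and 1, 3 and 4 in Exp 2.

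As keratinocytes leave the basal layer they stop dividing, move outward and replace their membrane with the cornified envelope, a shell of cross-linked protein. Loricrin, involucrin, the small proline-rich (Sprr) proteins and the late cornified envelope (Lce) proteins are its building blocks, and transglutaminases join them. Fused-type S100 proteins such as filaggrin 2, hornerin, repetin and cornulin combine a calcium-binding S100 end with long repeats and are deposited with keratin filaments and the envelope, while the single S100a proteins are small calcium sensors, some of which are alarm signals in injured or inflamed skin. Hair follicles keratinise by a related programme with its own keratins, so whole skin holds products of both.

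Values are log2 intensities relative to the 75th percentile of each array, and a difference of 1 on that scale is a doubling. Levels of different genes are not compared, because each probe has its own brightness. Differences were tested with limma over all 16180 genes, with Benjamini-Hochberg adjustment and a threshold of 0.05 on the adjusted p, and errors of differences are standard errors (SE) from that fit. Because the samples are whole skin, fewer cells of a type and less RNA per cell cannot be told apart in any of these values.

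The share of probes above background was 53.9% to 62.6% per array, and arrays of one group correlated at 0.96 or more over all genes. Sox4 itself was at 1.90 to 2.43 in the 6 WT mice and at -4.26 to -2.55 in the 6 cKO mice. The difference was -5.54 (SE 0.12, n = 6 per genotype, limma adjusted p = 3.76e-09), so the labels of all 12 arrays matched the targeted gene. Sox4 was above background in 1 of 3 cKO mice of Exp 1 and 3 of 3 of Exp 2, so its size is uncertain. Within cKO skin it was lower in Exp 1, at -4.26 to -3.86 against -3.05 to -2.55 (-1.19, SE 0.17, limma adjusted p = 0.0106, with 9.98% of all genes called). The cause was not tested. Markers of suprabasal keratinocytes (12 of 13 listed genes kept) and basal keratinocytes (11 of 11) were measured in every mouse, with list means of 4.03 to 5.41 and 3.73 to 5.13. One library stood apart from the rest. cKO mouse 5 of Exp 1 had the highest value of all mice for 33 of the 53 members, against 21.4% of all genes, and the lowest for 8. It also had the lowest list means for hair shaft keratins (3.78, other mice 6.11 to 7.50), adipocyte genes (0.47, others 2.68 to 4.42) and melanocyte genes (0.14, others 2.55 to 3.65). Its share in the results below was measured by leaving it out.

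**Figure D1:**
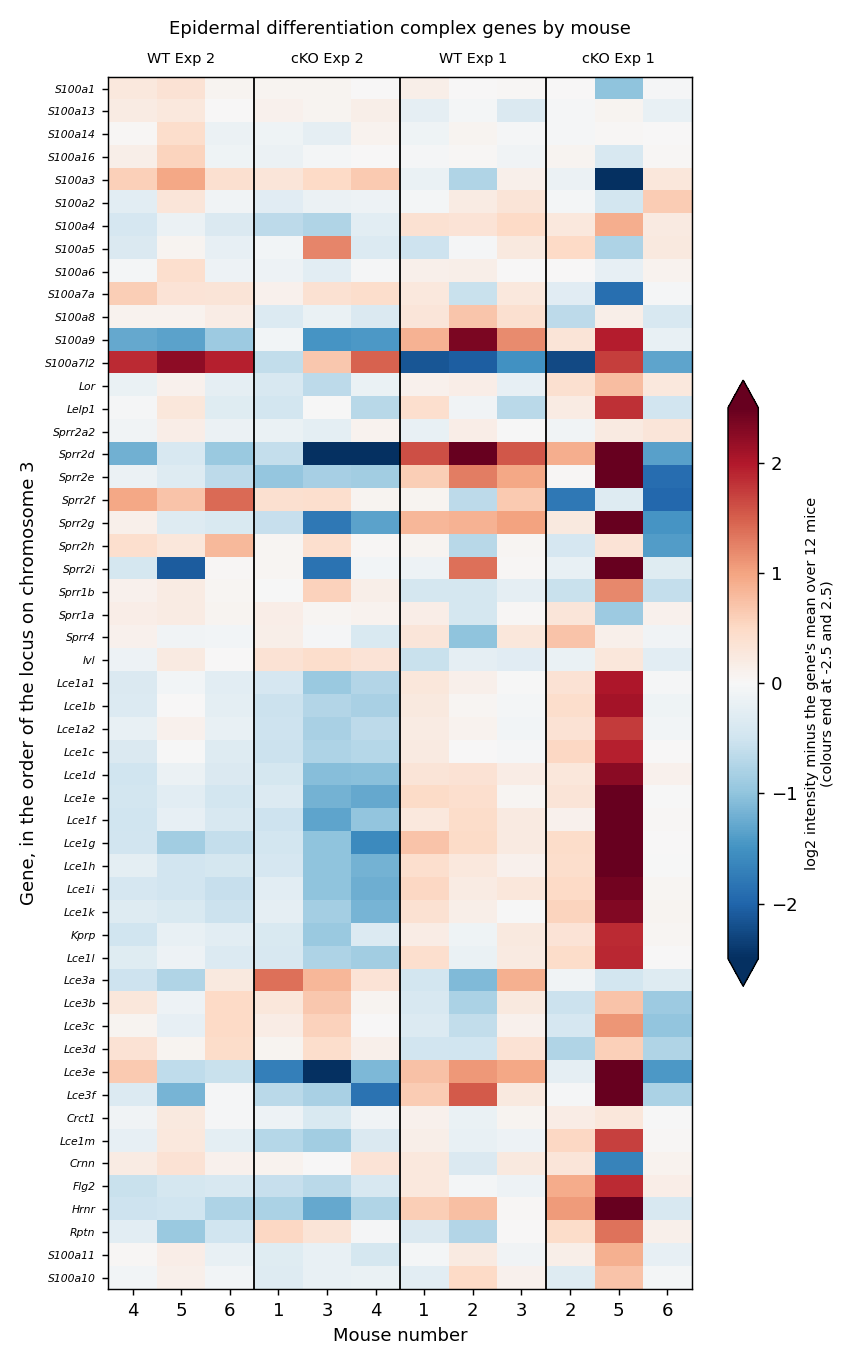
Heat map of the 53 genes (rows, in the order of the locus) in each of the 12 mice (columns, by group), coloured by the log2 intensity minus the gene's mean over all mice. The column of cKO mouse 5 is the reddest across the Lce1 genes, and S100a9, S100a7l2 and Sprr2d differ between Exp 2 and Exp 1 in WT mice.

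The first comparison asked whether loss of Sox4 changed the genes of the complex. None of the 53 members differed between cKO and WT skin at an adjusted p under 0.05 when the genotypes were compared over both experiments, where 0.42% of all genes passed. The median member differed by 0.04 (median of all genes -0.04), with 29 members positive and 24 negative. Without cKO mouse 5, described above, the median turned to -0.18, with 11 members positive and 42 negative. At an unadjusted p under 0.05 there were 4 members, S100a8, Rptn, Sprr2f and Ivl, which is 7.55% of the set against 12.2% of all genes. Within Exp 1 no member passed (background 0.117%), and 6 members had an unadjusted p under 0.05, a share of 11.3% that equals the 11.3% of all genes. Within Exp 2 none passed either (background 0.0618%), and 2 members had an unadjusted p under 0.05, 3.77% against 4.67% of all genes. Skeletal muscle genes were higher in cKO skin over both experiments for 16 of 16 (median 2.30, none called, 8 at an unadjusted p under 0.05), and the median was 1.97 without cKO mouse 5. Hair shaft keratins were lower for 10 of 10 (median -0.48, none called), with a median of -0.06 without that mouse. The part of tissue content in the genotype values was not tested.

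S100a8, which pairs with S100a9 to form the antimicrobial alarm protein calprotectin, had the smallest adjusted p of the genotype comparison. It was at 2.29, 2.69 and 2.39 in WT and 1.34, 2.14 and 1.58 in cKO mice of Exp 1, and at 2.09, 2.08 and 2.17 in WT and 1.65, 1.83 and 1.63 in cKO mice of Exp 2. Every cKO mouse lay below every WT mouse of its own experiment. The difference averaged over experiments was -0.59 (SE 0.13, n = 6 per genotype, limma adjusted p = 0.109). Without cKO mouse 5 it was -0.70 (SE 0.10, adjusted p = 0.0152), with 0.655% of all genes called, and S100a8 then passed within Exp 1 as well (-0.99, adjusted p = 0.0441, background 0.136%). The neutrophil list, a cell type that carries much S100a8, had 0 of 11 genes called in the genotype comparison and list means of -1.38 to -0.76 over all mice.

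Repetin, a fused-type S100 protein of the upper epidermis and follicle, differed the other way. Rptn was at 0.27, -0.11 and 0.64 in WT and 1.09, 1.99 and 0.74 in cKO mice of Exp 1, and at 0.37, -0.31 and 0.14 in WT and 1.15, 0.95 and 0.60 in cKO mice of Exp 2. All cKO values lay above all WT values within each experiment. The averaged difference of 0.92 (SE 0.23, n = 6 per genotype) did not pass (limma adjusted p = 0.138), and it was 0.74 without cKO mouse 5 (adjusted p = 0.129).

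Among the envelope precursors, 6 of 12 were higher and 6 lower in cKO skin on average, none past the threshold. Involucrin, an early envelope scaffold, was at 2.51 to 2.84 in WT and 2.80 to 3.36 in cKO mice of Exp 1, and at 2.96 to 3.29 and 3.43 to 3.51 in those of Exp 2. The groups were apart in Exp 2 and overlapped in Exp 1, with an averaged difference of 0.33 (SE 0.11, limma adjusted p = 0.298). Loricrin, the most abundant envelope protein, differed by 0.07 (SE 0.13, adjusted p = 0.849, 95% interval -0.21 to 0.36). Sprr2f, one of a family of near-identical small proline-rich genes, was lower in cKO skin by 1.06 on the log2 scale (value -1.06, SE 0.31, adjusted p = 0.217). Without cKO mouse 5 the Sprr2f difference was -1.32 (SE 0.23, adjusted p = 0.0422), and it and S100a8 were then the 2 members called. Sprr2d had the largest negative averaged difference, -1.28, with an SE of 0.74 (adjusted p = 0.516), and Sprr2i the largest positive one among the precursors, 0.41, with an SE of 0.72 (adjusted p = 0.846), which was -0.23 without cKO mouse 5. Sprr2i was above background on 4 of 12 arrays only.

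With all mice no Lce gene passed the threshold by genotype, averaged or within either experiment. Of 19, 16 were higher and 3 lower in cKO skin on average, with a median of 0.10. Without cKO mouse 5, 1 was higher and 18 were lower, with a median of -0.22, and all 13 Lce1 genes were then negative. With all mice the 13 Lce1 genes had differences of 0.02 to 0.24, made of a positive difference in Exp 1 (median 0.69, 13 of 13 positive) and a negative one in Exp 2 (median -0.48, 13 of 13 negative). Without cKO mouse 5 the Exp 1 median was 0.04, while that of Exp 2 does not involve that mouse. Lce3a, of the Lce3 family that is known for its induction after barrier injury, had the largest positive averaged difference of the Lce genes (0.56, SE 0.33, limma adjusted p = 0.52). In Exp 2 it was at -0.36, -0.60 and 0.40 in WT and 1.53, 0.99 and 0.49 in cKO mice, which do not overlap (difference 1.19, SE 0.47, adjusted p = 0.976). Lce3e had the most negative average (-0.76, SE 0.89, adjusted p = 0.755, and -1.70, adjusted p = 0.0788, without cKO mouse 5). In Exp 2 it was above background in no cKO mouse and in 2 of 3 WT mice (adjusted p = 0.977). The WT mean there was 1.41-fold above the lowest signal above background on the cKO arrays. That mean includes a mouse below background, so the fold is not a strict bound.

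Filaggrin 2 and hornerin, large repeat proteins that help to retain water in the cornified layer, had averaged genotype differences of 0.44 (SE 0.23, limma adjusted p = 0.478) and 0.13 (SE 0.40, adjusted p = 0.92), and of 0.22 and -0.24 without cKO mouse 5. Cornulin differed by -0.27 (SE 0.30, adjusted p = 0.735), and by 0.04 without cKO mouse 5. Of the 15 single S100a genes 13 were lower and 2 higher in cKO skin, none called, with a median of -0.14. S100a5 was highest (0.27, SE 0.30, adjusted p = 0.74), and S100a6, calcyclin, differed by -0.18 (SE 0.11, adjusted p = 0.531). Kprp, a keratinocyte proline-rich protein, differed by 0.21 (SE 0.28, adjusted p = 0.788, and -0.07 without cKO mouse 5) and Crct1 by -0.04 (SE 0.10, adjusted p = 0.879).

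In the younger mice of Exp 2 the groups did not overlap for 3 members that were higher in cKO skin, Lce3a, Ivl and Rptn, and for 15 that were lower. Over all genes the same held for 2.71% higher and 9.88% lower. The 15 lower members included 7 Lce1 genes, Sprr2e, Sprr2f, Sprr2g, S100a8 and S100a7l2, and none passed the limma threshold. A total of 44 of 53 members were negative in Exp 2, with a median of -0.26 (all genes -0.06).

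**Figure D2:**
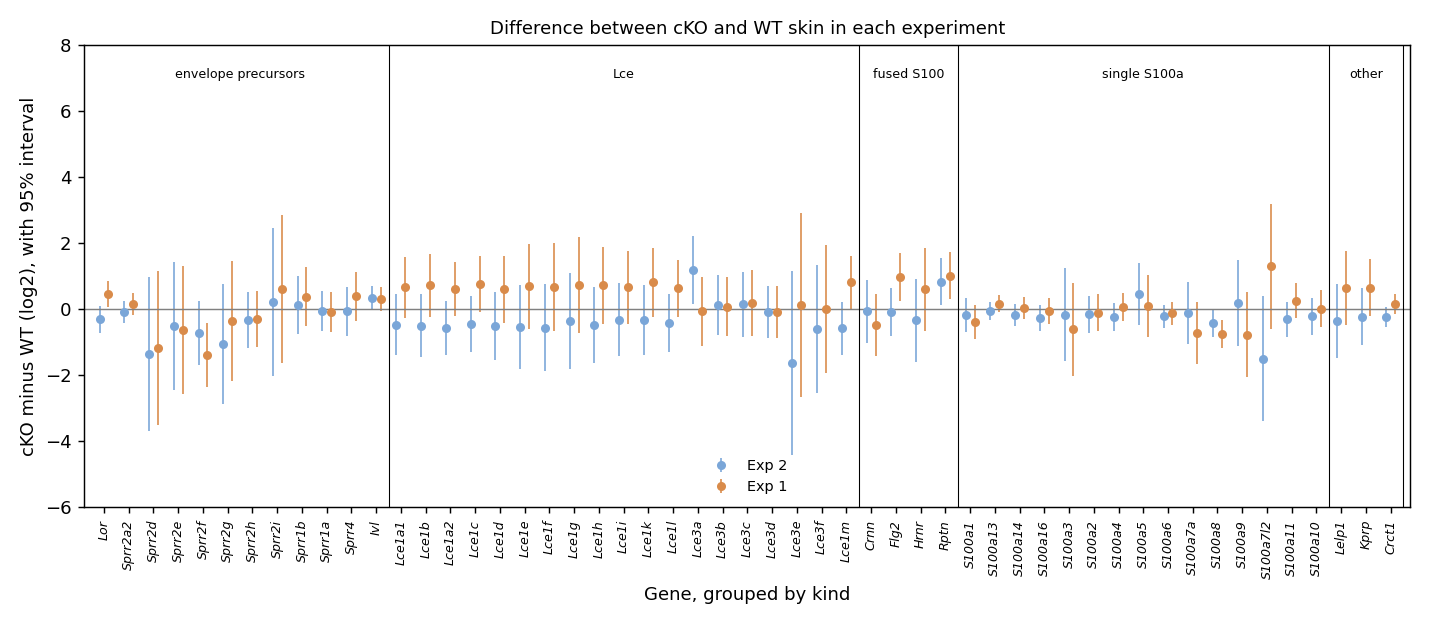
Difference between cKO and WT skin for each gene (log2) in Exp 2 and Exp 1, with the 95% interval from the limma fit, genes grouped by kind. The Lce1 genes lie above 0 in Exp 1 and below 0 in Exp 2, with most intervals spanning 0.

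The second comparison set the older mice of Exp 1 against the younger mice of Exp 2 within each genotype. In cKO skin 13 members passed, 12 higher and 1 lower in Exp 1, while 9.98% of all genes passed, 5.38% higher and 4.6% lower. Those that rose were Lor, Flg2, Hrnr, S100a4 and 8 Lce1 genes, and Sprr2f fell. The median member was 0.58 higher in Exp 1 against 0.03 for all genes, and 0.29 higher without cKO mouse 5. With all mice 27 of 53 members had an unadjusted p under 0.05, against 28.2% of all genes. In WT skin no member passed (background 0.841%), 7 members had an unadjusted p under 0.05 (13.2%, against 18.5% of all genes), and the median member was 0.12 higher in Exp 1 (all genes -0.01).

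The WT and cKO differences were not shown to differ from each other. The interaction (cKO minus WT in Exp 1, minus the same in Exp 2) called 0 members with limma, 0.00618% of all genes, and 5 members had an unadjusted p under 0.05 (9.43%, against 3.16% of all genes), Lor, Lce1m, S100a7l2, Lce1a2 and Flg2. Both within-genotype differences share mice with the genotype comparison.

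The arrays lay on 3 slides, each scanned apart, with the groups spread unevenly over them, and with slide as a block no member passed in cKO skin (background 0.902%). Leaving out cKO mouse 5 also called 13 members (background 3.85%), but 9 were higher and 4 lower in Exp 1. Of these, 7 were shared with the fit on all mice, Flg2, Lce1a1, Lce1a2, Lce1c, Lce1d, S100a4 and Sprr2f. The 4 lower ones were Sprr2f, Ivl, S100a7l2 and Sprr1b (-0.82, limma adjusted p = 0.0375). No member passed without cKO mouse 1 (background 3.65%) or cKO mouse 3 (0.97%), 1 passed without cKO mouse 4 (1.21%) and 24 without cKO mouse 6 (14.4%). The count was 3 without cKO mouse 2 (background 5.48%) or WT mouse 1, 4 or 6 (7.37%, 6.24% and 8.32%). It was 4 without WT mouse 2 or 3 (7.8% and 6.61%), and 6 without WT mouse 5 (9.31%).

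Loricrin rose in older cKO skin. Lor was at 9.42, 9.80 and 9.30 in the cKO mice of Exp 1 and at 8.64, 8.38 and 8.86 in those of Exp 2, groups that did not overlap. The difference of 0.88 (SE 0.18, 1.84-fold, limma adjusted p = 0.0228) was 0.74 without cKO mouse 5 (adjusted p = 0.053). WT mice overlapped, at 9.14, 9.20 and 8.82 in Exp 1 and 8.87, 9.15 and 8.80 in Exp 2 (difference 0.11, SE 0.18, adjusted p = 0.79). Involucrin, made earlier in the same cells, was lower in Exp 1 in both genotypes without passing (cKO -0.43, SE 0.16, adjusted p = 0.114; WT -0.39, SE 0.16, adjusted p = 0.226), and it was called in cKO skin once mouse 5 was left out (-0.60, adjusted p = 0.0488).

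Among the fused-type S100 genes, Flg2 and Hrnr rose in older cKO skin. Flg2 was at 5.21, 6.15 and 4.46 in Exp 1 and 3.72, 3.62 and 3.87 in Exp 2, a difference of 1.54 (SE 0.33, 2.90-fold, limma adjusted p = 0.0248) that remained called without cKO mouse 5 (1.10, SE 0.21, adjusted p = 0.0355). In WT mice Flg2 was at 4.55, 4.23 and 4.15 against 3.73, 3.84 and 3.89, groups that also did not overlap (0.49, SE 0.33, adjusted p = 0.47). Hrnr was at 2.56, 4.04 and 1.11 in older and 0.71, 0.22 and 0.76 in younger cKO mice. Its difference of 2.01 (SE 0.56, adjusted p = 0.0497) was 1.27 without cKO mouse 5 and then did not pass (adjusted p = 0.0862). In WT mice Hrnr was at 2.12, 2.26 and 1.54 against 0.99, 1.01 and 0.73, groups that did not overlap either (1.07, SE 0.56, limma adjusted p = 0.347). Rptn (0.38, SE 0.32, adjusted p = 0.484) and Crnn (-0.57, SE 0.42, adjusted p = 0.415) did not pass. Crnn was at 3.50 in cKO mouse 5 and at 4.81 to 5.52 in the other 11 mice.

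The Lce1 genes were higher together in older cKO skin. All 13 were higher, by 1.34 to 2.21 (median 1.72). None of their groups overlapped, while 17.4% of all genes were higher in Exp 1 with no overlap. Of the 13, 8 passed, against 5.38% of all genes called higher. Their probes may bind transcripts of close relatives, so the 13 values are not independent. Lce1c, as an example, was at 6.37, 7.81 and 5.86 in Exp 1 and 5.32, 5.09 and 5.13 in Exp 2 (difference 1.50, SE 0.38, 2.83-fold, limma adjusted p = 0.0389). Lce1m was at 6.82, 8.01 and 6.33 against 5.58, 5.44 and 5.94 (1.40, SE 0.36, adjusted p = 0.0387). Both show one mouse, cKO mouse 5, far above the other 2 of its group. The other called genes were Lce1d (1.73), Lce1l (1.47), Lce1a2 (1.34), Lce1k (1.72), Lce1i (1.81) and Lce1a1 (1.49), with adjusted p from 0.0425 to 0.0498. Lce1a1 lies outside the rule for named genes and is named to complete the count. The remaining 5 genes had adjusted p from 0.0503 to 0.0678.

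The Lce1 difference was smaller without that 1 mouse. The mean over the 13 Lce1 genes was 5.15, 7.02 and 4.75 in older and 4.30, 3.80 and 3.77 in younger cKO mice, and 5.10, 4.92 and 4.82 in older and 4.38, 4.54 and 4.36 in younger WT mice. Older mice were above younger mice in both genotypes. The median Lce1 difference in cKO skin was 1.01 without cKO mouse 5, with 7 of 13 called (3.85% of all genes, either direction). It was 0.58 in WT skin, where none passed (background 0.841%). There 8 of 13 genes were higher in Exp 1 with no overlap, against 14.5% of all genes. Within slide 1 the median in cKO skin was 0.63, from 2 older mice and 1 younger mouse, and within slide 2, where mouse 5 is the only older cKO mouse, it was 3.31.

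The Lce3 genes, on the same locus, did not share the direction of the Lce1 genes. Of 6, 2 were higher and 4 lower in older cKO skin, with a median of -0.43 and none called, and the median was -0.96 without cKO mouse 5. Lce3a was at 0.07, -0.32 and -0.18 in older and 1.53, 0.99 and 0.49 in younger cKO mice (-1.14, SE 0.47, limma adjusted p = 0.14), and the WT groups overlapped (0.12, adjusted p = 0.921). Lce3e was above background in 2 of 3 older and no younger cKO mice (adjusted p = 0.167). The older mean was 3.28-fold above the background limit of the younger mice. That mean includes a mouse below background, so the fold is not a strict bound. Lce3e was at 0.49 in cKO mouse 5 and -6.93 to -3.24 in the others. Without that mouse the mean of the older cKO mice (-5.16) was below the background limit of the younger ones (-4.99).

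**Figure D3:**
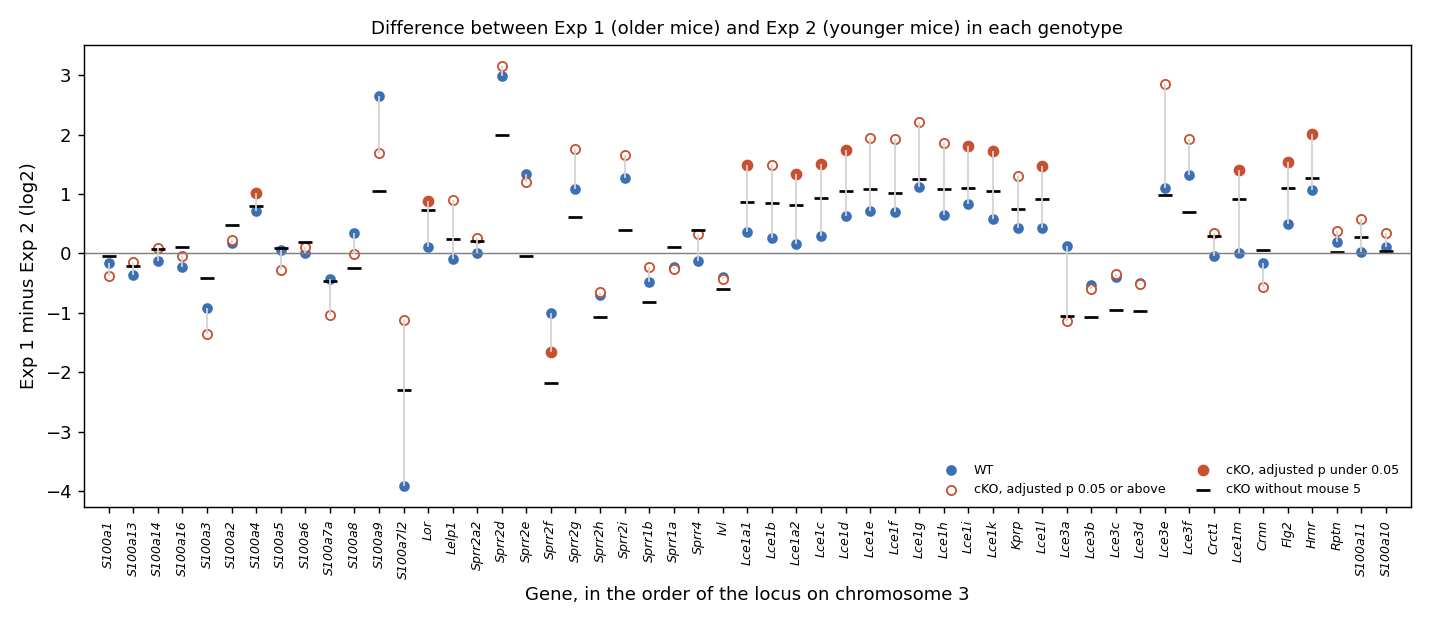
Difference between Exp 1 and Exp 2 (log2) for each gene in the order of the locus, in WT mice (blue), in cKO mice (red, filled where the adjusted p was under 0.05) and in cKO mice without mouse 5 (black dashes). From Lce1a1 to Lce1l the Lce1 genes lie above 0 in both genotypes, with the dash between the WT and the cKO point, while Lce1m in WT mice lies near 0.

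Of the 7 Sprr2 genes, 1 passed in cKO skin. RefSeq lists Sprr2g as a transcribed pseudogene, which is counted here and among the envelope precursors. Sprr2f fell in older cKO skin. It was at -3.99, -2.54 and -4.17 in Exp 1 and -1.80, -1.78 and -2.13 in Exp 2, a difference of -1.66 (SE 0.43, limma adjusted p = 0.0407) that was -2.17 without cKO mouse 5 (SE 0.34, adjusted p = 0.0224). In WT mice the groups did not overlap either, at -2.13, -2.86 and -1.55 against -1.23, -1.50 and -0.79 (-1.01, SE 0.43, adjusted p = 0.248). Sprr2d was higher in Exp 1 in both genotypes without passing. In WT mice it was at 0.01, 1.61 and -0.06 against -2.82, -2.02 and -2.55 (2.98, SE 1.05, adjusted p = 0.167), and in cKO mice at -0.71, 1.67 and -2.98 against -2.21, -4.63 and -4.65 (3.16, SE 1.05, adjusted p = 0.0813). The cKO groups overlapped and the WT groups did not. Over the 7 Sprr2 genes the median in cKO skin was 1.20 and, without cKO mouse 5, 0.21. Probes for Sprr2 and Lce paralogs may bind transcripts of close relatives, so values within these families are uncertain as to the gene. The second probe for Sprr2a2 differed in size from the first (1.19 against 0.25 in cKO skin), and the second probes of all 8 members that had one agreed in sign there.

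S100a4, a calcium-binding protein of fibroblasts and immune cells, had the smallest adjusted p of the set. It was at 5.18, 5.82 and 5.14 in older and 4.27, 4.18 and 4.66 in younger cKO mice (1.01, SE 0.19, 2.02-fold, limma adjusted p = 0.019), and the difference was 0.79 without cKO mouse 5 (adjusted p = 0.036). In WT mice it was at 5.30, 5.26 and 5.42 against 4.50, 4.77 and 4.56 (0.72, SE 0.19, adjusted p = 0.0925). Groups were apart in both genotypes. A second S100a4 probe gave 1.08 in cKO skin (adjusted p = 0.0167). The 10 fibroblast genes differed by -0.99 to 0.45 in WT (median -0.19, none called) and by -1.08 to 0.16 in cKO skin (median 0.04, 2 called lower), and the macrophage list was lower in Exp 1 in both genotypes.

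The largest difference of any member in these comparisons was that of S100a7l2 in WT mice. S100a7l2, related to the antimicrobial psoriasin, was at -2.47, -2.38 and -1.84 in older and 1.53, 1.90 and 1.62 in younger WT mice (-3.91, SE 0.86, 15.1-fold lower, limma adjusted p = 0.0641). In cKO mice it was at -2.58, 1.40 and -1.65 against -0.94, 0.34 and 1.15, where the 2 older mice other than mouse 5 lay below all younger ones (-1.12, SE 0.86, adjusted p = 0.426, and -2.30, adjusted p = 0.047, without mouse 5). S100a9, the partner of S100a8, was at 2.36, 3.84 and 2.66 against 0.20, 0.15 and 0.58 in WT (2.64, SE 0.58, 6.24-fold, adjusted p = 0.0653) and at 1.80, 3.45 and 1.29 against 1.41, 0.01 and 0.04 in cKO mice (1.69, SE 0.58, adjusted p = 0.0902). S100a8 differed by 0.34 in WT (adjusted p = 0.372) and by -0.01 in cKO skin (adjusted p = 0.972). With the spread estimated without cKO mouse 5, S100a4, S100a7l2 and S100a9 passed in WT skin (adjusted p = 0.0364, 0.0156 and 0.0285, background 3.69%), although no WT value changed. S100a3, a protein of the hair cuticle, was at 5.00 in cKO mouse 5 and 7.02 to 8.74 in the others, and was lower in Exp 1 in WT (-0.92, SE 0.63, adjusted p = 0.482) and cKO mice (-1.36, SE 0.63, adjusted p = 0.19). S100a7l2, S100a9 and S100a3 were chosen after their values were seen.

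**Figure D4:**
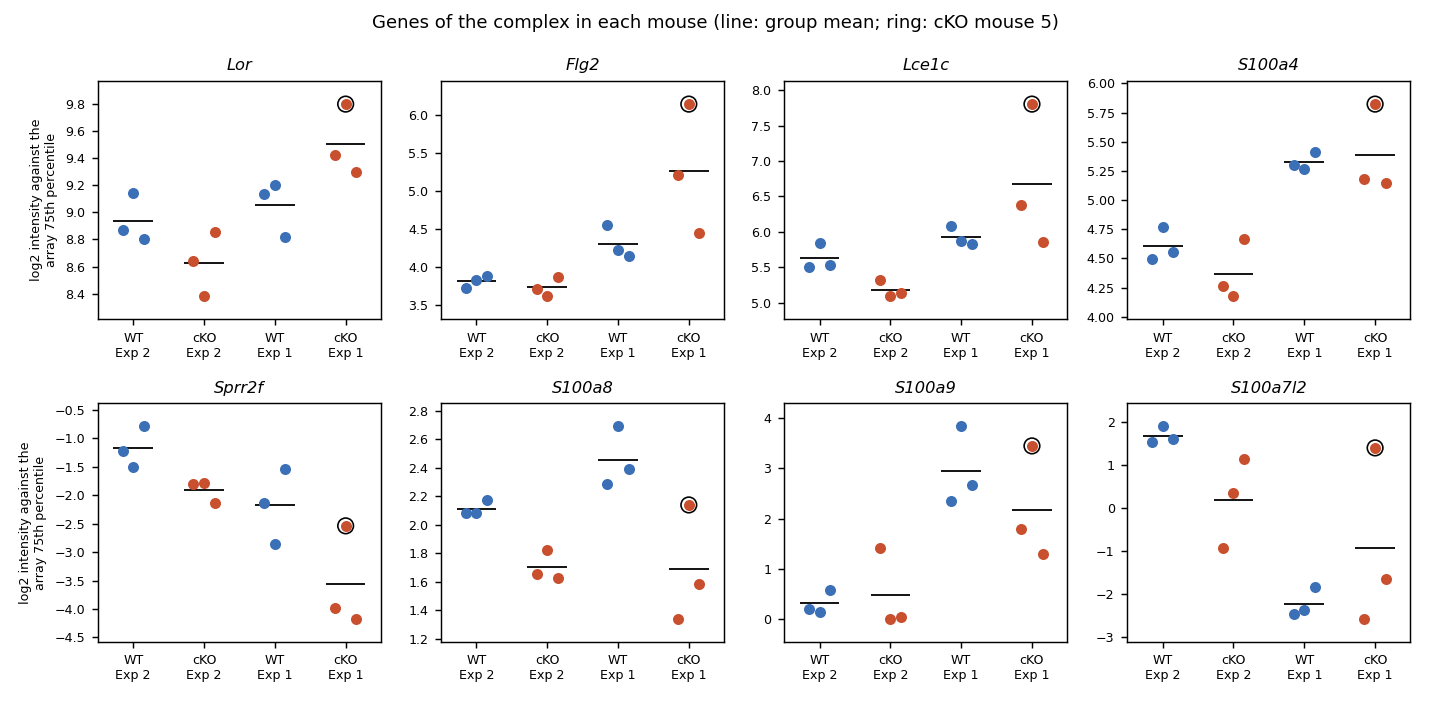
Log2 intensity of 8 genes in each of the 12 mice, by group (points, mice; lines, group means; ring, cKO mouse 5). In Lor, Flg2, Lce1c and S100a4 the older cKO mice lie above the younger ones, in Sprr2f below, and in S100a8 each cKO mouse lies below the WT mice of its experiment.

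Groups that did not overlap between the experiments were counted over the whole set. In WT skin 19 members were higher and 8 lower in Exp 1 with no overlap, against 14.5% and 13.4% of all genes. In cKO skin 19 were higher and 6 lower, against 17.4% and 13.8%. The 8 lower members in WT skin were Ivl, Sprr1b, Sprr2f, Sprr2h, S100a13, S100a3, S100a7a and S100a7l2.

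The Lce1 genes were higher together in older cKO skin. Sprr2f, of the same family as Sprr2d, was lower, and Lce3e stood out in 1 mouse. Promoters of some genes called in cKO skin are therefore shown here, with those of Sprr2d and Lce3e, which did not pass. Each is the 150 bases before the start of the gene in RefSeq on GRCm38.p6 (the array files name mm9), read on the strand of the gene, and 46 of the 53 members had an entry. Capitals mark TGANTCA on either strand. This pattern is wider than the core of the AP-1 site, because any middle base counts, as in TGAATCA of Flg2. They also mark TATAAA or ATAAAA, forms of the TATA box that overlap each other, on the strand of the gene.
Lor, chr3:92083143-92083292, minus strand: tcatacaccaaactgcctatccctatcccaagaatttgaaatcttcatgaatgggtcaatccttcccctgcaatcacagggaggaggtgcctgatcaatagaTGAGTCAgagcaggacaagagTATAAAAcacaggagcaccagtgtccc
Flg2, chr3:93197123-93197272, plus strand: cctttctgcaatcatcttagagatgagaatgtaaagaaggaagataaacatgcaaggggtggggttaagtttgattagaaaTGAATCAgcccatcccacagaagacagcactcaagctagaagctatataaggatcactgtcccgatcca
Lce1c, chr3:92679097-92679246, plus strand: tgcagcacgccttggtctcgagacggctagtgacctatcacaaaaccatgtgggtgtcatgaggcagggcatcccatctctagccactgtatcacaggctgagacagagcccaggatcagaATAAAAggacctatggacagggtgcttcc
Lce1d, chr3:92687211-92687360, minus strand: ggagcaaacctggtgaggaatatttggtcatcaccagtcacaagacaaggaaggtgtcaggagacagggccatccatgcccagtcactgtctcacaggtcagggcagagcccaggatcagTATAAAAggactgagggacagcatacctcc
Lce1m, chr3:93019062-93019211, minus strand: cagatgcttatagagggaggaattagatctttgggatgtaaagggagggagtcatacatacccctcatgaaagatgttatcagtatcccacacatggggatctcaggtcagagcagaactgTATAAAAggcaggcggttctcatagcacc
Lce3e, chr3:92966911-92967060, plus strand: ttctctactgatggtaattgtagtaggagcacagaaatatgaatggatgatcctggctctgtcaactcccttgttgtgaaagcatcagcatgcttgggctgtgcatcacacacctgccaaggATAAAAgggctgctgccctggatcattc
Sprr2d, chr3:92338990-92339139, plus strand: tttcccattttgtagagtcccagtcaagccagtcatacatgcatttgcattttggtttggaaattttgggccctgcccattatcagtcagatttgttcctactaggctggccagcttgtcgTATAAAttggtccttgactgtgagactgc
Sprr2f, chr3:92365037-92365186, plus strand: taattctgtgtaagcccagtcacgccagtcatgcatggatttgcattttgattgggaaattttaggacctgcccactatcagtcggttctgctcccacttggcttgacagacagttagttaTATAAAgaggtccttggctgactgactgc

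Over the 250 bases before the start, TGANTCA was present in 14 of the 46 members, in 0 of 12 Lce1, 0 of 6 Lce3 and 5 of 6 Sprr2 genes, against 6.87% of 27025 RefSeq promoters of the same length. TATAAA was present in 17 of 46 members, against 8.12%, and in 2 of 12 Lce1 genes. ATAAAA was present in 25 of 46 members, against 10.8%, in 11 of 12 Lce1 and in 6 of 6 Lce3 genes. Identity between the 150 base stretches of 2 Lce1 genes was 50.8% to 86.7% (median 69.6%), and between an Lce1 and an Lce3 gene 46.9% to 57.7% (median 52.3%). Sprr2d and Sprr2f were 76.3% identical there.

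Other genes of the cornification programme were counted from fixed lists. In cKO skin 6 of 23 cross-linking and processing genes rose and 1 fell in Exp 1 (median 0.38), where 5.38% of all genes were called higher and 4.6% lower. Leaving out cKO mouse 5, 2 rose and 1 fell (median 0.34). Tgm5, a transglutaminase, was higher by 0.89 (limma adjusted p = 0.0208), Spink5, the protease inhibitor that limits desquamation, by 0.89 (adjusted p = 0.0274) and Cst6, a cysteine protease inhibitor of cornification, by 0.69 (adjusted p = 0.0228, and 0.0536 without cKO mouse 5). Of 14 lipid barrier genes all were higher and 2 passed (median 0.75), among them Aloxe3, a lipoxygenase of the lipid envelope (1.28, adjusted p = 0.0378, and 0.082 without cKO mouse 5). Without that mouse 11 of the 14 were higher and 1 passed (median 0.45). Of 28 reported regulators of the complex 1 rose (median 0.17, and 0.11 without cKO mouse 5), and of 8 other genes of the locus 1 rose, Pglyrp4, a peptidoglycan recognition protein (1.37, adjusted p = 0.0116). In WT skin these 4 lists had no gene called and medians of -0.04, 0.23, 0.03 and -0.01. By genotype over both experiments the same lists had no gene called, with medians of 0.11, 0.13, 0.02 and 0.08.

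Markers of other cell types also differed between the experiments. In cKO skin 5.38% of all genes were called higher in Exp 1 and 4.6% lower, and 3.85% were called in either direction without cKO mouse 5. Basal keratinocyte genes were higher in Exp 1 in cKO skin for 11 of 11, with 7 called (median 0.85; 4 called and 0.63 without cKO mouse 5), and in WT skin for 10 of 11 (median 0.44). Col17a1, a hemidesmosome collagen, was higher by 1.43 in cKO skin (limma adjusted p = 0.0227). Suprabasal keratinocyte genes were higher in cKO skin for 10 of 12 (2 called, median 0.41) and stress keratinocyte genes for 6 of 7 (2 called, median 0.91). No suprabasal gene was called without cKO mouse 5 (median 0.30), and of the stress genes 4 of 7 were higher with 1 called (median 0.05). Hair shaft keratins were lower in Exp 1 for 10 of 10 in both genotypes (medians -0.89 in WT and -1.62 in cKO skin, none called), and the cKO median was -0.77 without cKO mouse 5. Inner root sheath genes were lower for 9 of 10 in WT and 8 of 10 in cKO skin (none called), and for 3 of 10 in cKO skin without that mouse (1 called). The mean of the basal list was 4.27 to 4.43 in older and 3.90 to 3.99 in younger WT mice, and 4.39 to 5.13 in older and 3.73 to 4.02 in younger cKO mice. With that mean as a covariate no gene of the whole table passed (background 0%), so no member did, and the median Lce1 difference in cKO skin was -0.50. The basal list mean separated older from younger mice in each genotype, so this fit could not test keratinocyte content. The part of that content in the Lce1 result was not tested.

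Skeletal muscle genes were lower in Exp 1 for 16 of 16 in both genotypes, with 14 called in cKO skin (1 without cKO mouse 5, at a median of -6.56 against -5.80 with it), and the list mean ran from -3.72 to -2.65 in older and -0.72 to 5.71 in younger WT mice, and from -2.63 to 0.61 and 4.66 to 5.88 in cKO mice. With that mean as a covariate no gene of the whole table was called (background 0%), and the Lce1 median in cKO skin was 1.99. The muscle list mean also separated older from younger mice in each genotype, so this fit could not test muscle content. Macrophage genes were lower in Exp 1 for 9 of 9 in both genotypes (6 called in cKO skin, 3 without cKO mouse 5), and adipocyte genes for 8 of 8 (none called). Over all genes 5.38% were called higher and 4.6% lower in Exp 1 in cKO skin (3.85% in either direction without cKO mouse 5). The other lists gave 1 of 11 sebaceous gland genes higher and 1 of 11 neutrophil genes lower there. In addition 2 of 10 fibroblast genes and 2 of 8 peripheral nerve and Schwann cell genes were called lower. None was called of 7 endothelial and 8 melanocyte genes. The sebaceous count was 0 and the nerve count 1 without cKO mouse 5. None of these lists had a gene called by genotype over both experiments.

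**Figure D5:**
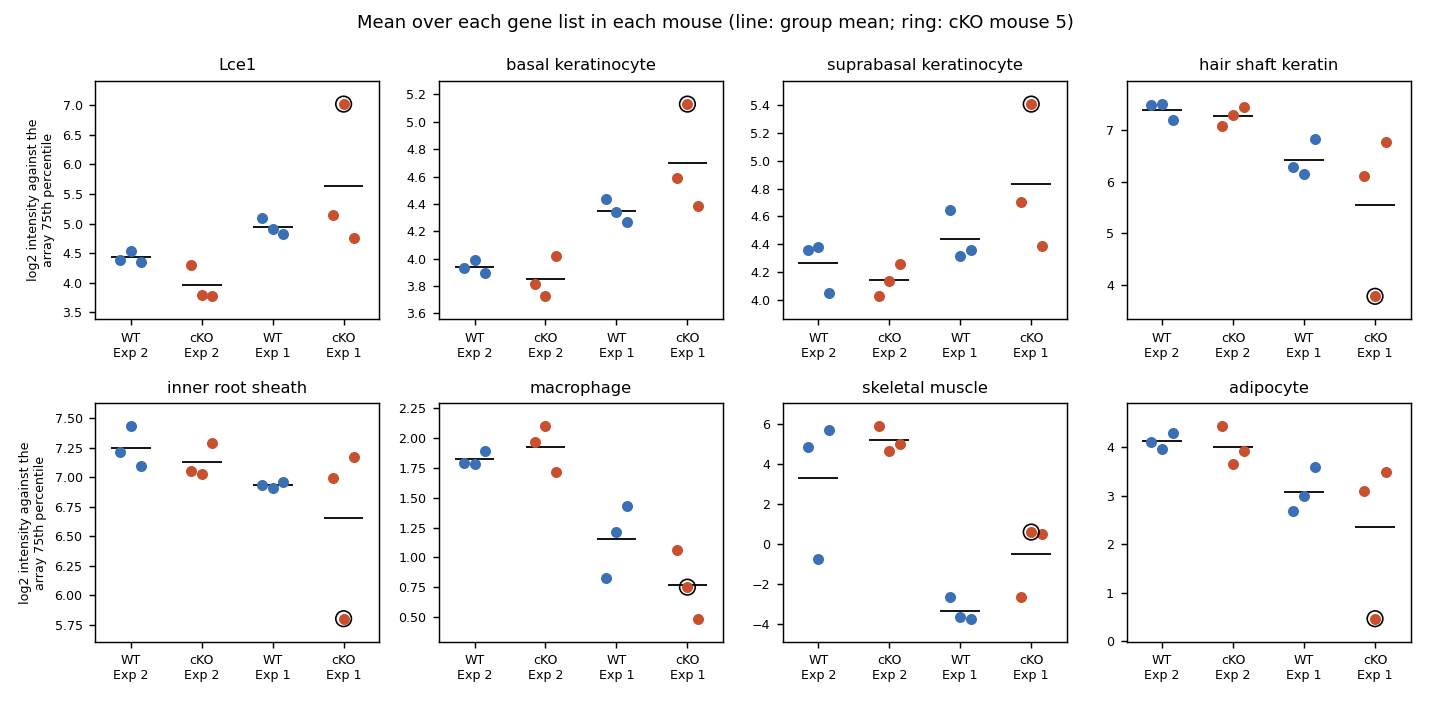
Mean log2 intensity over the Lce1 genes and over 7 marker lists in each mouse, by group (points, mice; lines, group means; ring, cKO mouse 5). Lce1 and both keratinocyte lists are highest in cKO mouse 5, and hair shaft, inner root sheath and adipocyte lists are lowest there.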

How the data were processed

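RNA of whole skin from 12 mice was hybridised singly, in 1 colour, to Agilent arrays. Per the file headers, the deposited intensity (processed signal) and the flags for signal above background came from Feature Extraction 11.5.1.1. The authors' deposited value table is on a log2 scale and was used only as an alternative; limma is named in the submitters' processing notes. Here log2 intensity minus the array's 75th percentile was fitted in limma 3.58.1 (R 4.3.3) as 4 group means, with 6 contrasts and adjustment over 16180 genes, tested on simulated data. Probes were named through RefSeq accessions. Precision is limited by 3 mice per group. The labels give each sample as a different mouse.

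Genes named were Sox4, Lor and Ivl, the 12 called members with the smallest adjusted p, the highest, lowest and brightest member of each kind, and up to 4 per list. Members, lists and tests were chosen with earlier results of these data known. Alternatives covered scaling, filter, slide, covariates, the authors' table and leaving out each mouse.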

Additional observations from a re-analysis of the deposited data

Results flagged for a closer look

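In 7 of 8 instances the value that stood far from the rest of its 6 mice belonged to cKO mouse 5, by the gap to the nearest mouse as a share of the whole range (Dixon's limit, which chance passes in about 1 of 20 groups). It was highest for the mean of all members (gap 0.68 of the range), the mean of the envelope precursors (0.65), the mean of the Lce3 genes (0.69), Lce3e (0.68) and Sprr2i (0.65). It was lowest for Crnn (0.83) and for S100a3, a hair cuticle protein (0.77). These 7 share 1 library, so they are not independent. The remaining instance was WT mouse 2, lowest among WT mice for Crnn (0.64).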

How the results depend on the processing

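Between the experiments in cKO skin 13 members were called (9.98% of all genes). None was called within slide 1 (0 members, 0.692%), in a fit blocked on slide (0.902%), with the tag in the array names as a term (0.569%), in the authors' deposited table (0.383%), and with the mean of the skeletal muscle list or of the basal keratinocyte list as a covariate, where no gene of the table was called. There were 3 without the filter on dim probes (5.74%), 8 in that table without the column of cKO mouse 1 (whose gene-centred values there correlated with its own array at 0.41, against 0.84 to 0.92 for the others; 6.54% of all genes), 20 after normexp and quantile normalization (13.6%) and 34 within slide 2 (18.5%). In WT skin 0 became 1 with median scaling (1.71% of all genes) or the basal covariate (0.0494%). It became 2 with all arrays required above background (1.21%) or a mean-variance trend (1.33%). It became 3 after normexp (1.67%) or in the authors' table without cKO mouse 1 (1.55%), and 5 with array weights (12.1%). By genotype 0 became 2 with array weights, both averaged (1.93% of all genes) and in Exp 1 (0.612%). Within slide 2 it became 6 (averaged), 30 (Exp 1) and 20 (interaction). There each group has 1 or 2 arrays, and the lone ones are assumed to vary like the rest. The Exp 1 genotype difference on slide 2 is cKO mouse 5 against WT mouse 1 alone (median member 1.41). These 3 counts therefore cannot tell genotype from single mice. Slide 2 is left out of the WT counts above, since WT mouse 1 is its only older WT mouse. Leaving out 1 mouse at a time gave 0 to 24 calls in cKO skin, highest without cKO mouse 6, 0 to 3 in WT skin, 0 to 2 by genotype averaged and 0 to 1 in Exp 1, where the highest counts of the last 3 ranges came without cKO mouse 5. Without WT mice 1, 4 or 6 or cKO mouse 2, 3 members were called in cKO skin, without WT mice 2 or 3, 4, and without WT mouse 5, 6. The cause of these changes was not tested.

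With the basal keratinocyte covariate the difference in cKO skin turned negative for Flg2 (-0.14), Lce1m (-0.48), Lce1c (-0.42), Lce1d (-0.39), Lce1l (-0.32), Lce1a2 (-0.50), Lce1k (-0.34), Lce1i (-0.37), Hrnr (-0.88) and Lce1a1 (-0.60), with no adjusted p under 0.05, and within slide 2 that of Sprr2d by genotype in Exp 1 turned positive (1.66, adjusted p = 0.0266). Over the named genes and the other settings, 2431 values kept a call and its direction or, uncalled in both fits, stayed within the replicate spread. Uncalled values among these could change sign. A further 214 lost a call, 50 gained one and 165 moved by more than that spread. The differences in mean level of the members kept within that spread under all 6 scalings and probe rules tried.

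Mouse numbers do not pair the samples, since equal numbers mostly lie in different experiments and same-numbered WT and cKO mice correlated at -0.26 to 0.07 after removing group means. With the number as a replicate block 0 members, and 0 of all genes, were called in cKO skin. Member calls in the other 5 comparisons stayed at 0. Calls over all genes fell there, from 68 to 4 by genotype averaged and from 136 to 0 in WT skin.

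Among the limits, 3 mice per group set the precision, and Lce3e lay near background. Leaving out 1 library took the median Lce1 difference in cKO skin from 1.72 to 1.01.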
